A study of Mus musculus with 6 samples.

Results

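The mineral of bone depends on the balance between phosphate and pyrophosphate around the cell, and 7 genes that set this balance are described here: Alpl, Phospho1, Enpp1, Ank, Slc20a1, Slc20a2 and Phex. They were taken by gene symbol, each matching 1 row, from a deposited table of 56691 genes. They were measured in mouse bone marrow stromal cells (BMSCs), adherent marrow cells that can become osteoblasts, of WT genotype. In the conditioned medium group (CM, 3 samples), osteoblast differentiation ran for 7 days in α-MEM with 10% FBS that held medium conditioned by Hepa 1-6 cells, a line of mouse hepatoma cells. In the control medium group (Control, 3 samples), the cells received the same differentiation medium with control medium in its place. Both groups received antibiotics, ascorbic acid at 50 µg/ml and β-glycerophosphate at 1.08 mg/ml, renewed every 2 days. The make-up of the control medium, the dose of conditioned medium and the age of the mice are not given in the sources used here, nor is it said if the 3 samples of a group were separate cultures or animals. The p-values therefore measure only how these samples spread, and part or all of that spread may be technical.

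Hydroxyapatite crystals need inorganic phosphate, and pyrophosphate blocks their growth. Cells make pyrophosphate outside the membrane from ATP, and alkaline phosphatase cleaves it to phosphate, so this enzyme removes an inhibitor and supplies an ingredient in 1 step. β-Glycerophosphate, present in both groups, is an organic phosphate from which alkaline phosphatase releases phosphate. Phosphate enters cells through sodium-coupled transporters, and at the level of the body it is adjusted by the hormone FGF23, whose production PHEX restrains.

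Of the 7 genes, 5 passed the expression filter (a mean of at least 1 FPKM over the 6 samples) and were tested. FPKM is the read count scaled to exon length and to the sample's total count. Calls rest on edgeR's quasi-likelihood test over all 12153 tested genes, at an adjusted p under 0.05. Fold changes are log2, conditioned minus control medium, ± SE. Ank was 2.00-fold lower in conditioned medium and Slc20a2 1.78-fold higher. Alpl differed by -10.1%, a call that depended on single libraries. Slc20a1 and Enpp1 were not called, and Phospho1 and Phex lay far below the filter. Thus 1 of the 5 tested genes rose, against 23.0% of all tested genes, and 2 fell, against 22.9%. These shares show how widely transcripts differed between the groups, and 3 calls among 5 genes say nothing particular about the set.

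**Figure D1:**
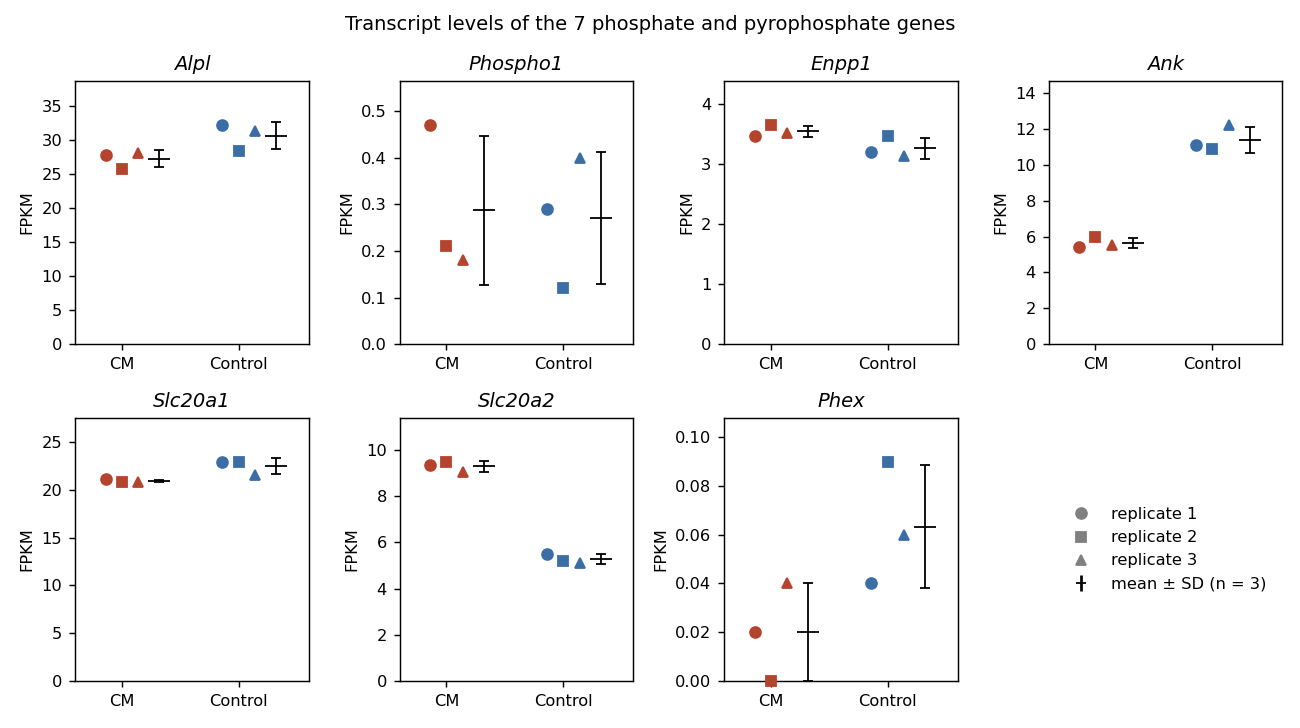
Transcript level (FPKM, each panel with its own axis from 0) of the 7 genes in each library, with conditioned medium (CM) on the left and control medium on the right of each panel; symbols mark the replicate and black bars the mean ± SD of 3 samples. Ank is at 5.39 to 5.98 FPKM in conditioned medium and 10.9 to 12.2 FPKM in control medium, Slc20a2 shows the opposite order, and Phospho1 overlaps between the groups.

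Expressed per exon length, the order of the levels was Alpl, Slc20a1, Slc20a2, Ank, Enpp1, Phospho1 and Phex in conditioned medium. In control medium Ank and Slc20a2 changed places, and the rest of the order was alike. Neighbours in each order did not overlap in their 3 libraries. Among all tested genes by mean level, Alpl stood at percentile 87.4, Slc20a1 at 82.4, Ank at 57.7, Slc20a2 at 52.7 and Enpp1 at 29.2. By the size of the log2 fold change, whatever its sign, Ank stood at percentile 94.2 and Slc20a2 at 92.2, while Alpl stood at 43.3, Enpp1 at 38.7 and Slc20a1 at 26.3.

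Pyrophosphate is supplied by Ank and Enpp1. Ank (ENSMUSG00000022265, chr15:27466763-27594995 in GRCm39, plus strand) encodes a membrane protein of many passes through which ATP and pyrophosphate leave the cell, and its human counterpart is named ANKH. Ank was at 5.39, 5.98 and 5.55 FPKM in conditioned medium replicates 1 to 3, and at 11.09, 10.86 and 12.22 FPKM in control medium replicates 1 to 3. All 3 conditioned medium libraries lay below all 3 control libraries, a pattern that 28.4% of all tested genes showed. The means were 5.64 ± 0.305 FPKM in conditioned medium and 11.4 ± 0.728 FPKM in control medium (SD, n = 3 each). The groups held 1244 counts in conditioned medium and 2462 in control medium. The log2 fold change was -1.0 ± 0.071 (edgeR adjusted p = 1.8e-10), which lies at the limit of 2-fold and passed it in 6 of the 15 alternatives tried. A fall of at least 2-fold was called in 2.18% of tested genes, and a change of that size in either direction in 5.28%.

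The span of Ank overlaps that of Otulin, a deubiquitinase gene on the opposite strand, and the sources used here do not say if reads were counted by strand. Otulin had 1863 counts in conditioned medium and 2298 in control medium, a log2 fold change of -0.32 ± 0.060 (edgeR adjusted p = 1.6e-04), so it moved in the direction of Ank by a smaller amount. Its part in the Ank result was not tested. The other 3 overlapping genes held no more than 3 counts in any group.

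Enpp1 (ENSMUSG00000037370, chr10:24513812-24588057 in GRCm39, minus strand) encodes the ectoenzyme that splits ATP into AMP and pyrophosphate. It was at 3.47, 3.65 and 3.52 FPKM in conditioned medium, and at 3.20, 3.46 and 3.13 FPKM in control medium. The highest control library, replicate 2, came just under the lowest conditioned medium library, replicate 1. The log2 fold change was 0.14 ± 0.063 (edgeR adjusted p = 0.086), with a 95% interval of 0.00 to 0.27 or an increase of 0.305% to 20.2%. This interval leaves out a fall of the size seen in Ank. Without control medium replicate 2, the highest of the control libraries, Enpp1 was called at 0.18 (adjusted p = 0.041). The other 14 alternatives gave adjusted p between 0.076 and 0.40.

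The ratio of the Enpp1 level to the Ank level within a library put these values side by side. It was 0.644, 0.610 and 0.634 in conditioned medium, and 0.289, 0.319 and 0.256 in control medium. Each conditioned medium library thus held more Enpp1 transcript per Ank transcript than any control library, with means of 0.629 ± 0.0172 in conditioned medium and 0.288 ± 0.0312 in control medium (SD, n = 3 each). Such a ratio shows unequal change of 2 transcripts, and it was not tested. Its separation of the groups followed from the levels above, since Enpp1 was higher and Ank lower in every conditioned medium library.

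The stretches of DNA around the start sites of both genes and of Alpl are shown because these 3 supply and remove the same product while their transcripts moved differently. They come from RefSeq on GRCm38.p6, an older build than that of the gene positions above, and run from 250 bases before to 50 bases after the start. Capitals mark matches, on either strand, to the core motifs of RUNX factors (TGTGGT), AP-1 (TGANTCA), HIF (ACGTG), C/EBP (TTGCNNAA) and SP1 (GGGCGG).
Ank, chr15:27466427-27466726, plus strand: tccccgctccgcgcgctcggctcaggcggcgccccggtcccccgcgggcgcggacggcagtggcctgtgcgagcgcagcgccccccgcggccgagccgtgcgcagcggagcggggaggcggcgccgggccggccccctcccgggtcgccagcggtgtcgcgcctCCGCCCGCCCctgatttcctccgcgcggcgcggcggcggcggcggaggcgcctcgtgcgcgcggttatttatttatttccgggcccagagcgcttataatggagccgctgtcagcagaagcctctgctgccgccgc
Enpp1, chr10:24712110-24712409, minus strand: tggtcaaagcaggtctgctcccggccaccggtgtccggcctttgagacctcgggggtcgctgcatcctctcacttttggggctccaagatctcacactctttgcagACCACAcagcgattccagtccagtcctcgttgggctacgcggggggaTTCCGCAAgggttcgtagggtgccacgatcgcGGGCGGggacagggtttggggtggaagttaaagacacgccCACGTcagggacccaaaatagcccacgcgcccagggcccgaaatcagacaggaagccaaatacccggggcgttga
Alpl, upstream start, chr4:137796335-137796634, minus strand: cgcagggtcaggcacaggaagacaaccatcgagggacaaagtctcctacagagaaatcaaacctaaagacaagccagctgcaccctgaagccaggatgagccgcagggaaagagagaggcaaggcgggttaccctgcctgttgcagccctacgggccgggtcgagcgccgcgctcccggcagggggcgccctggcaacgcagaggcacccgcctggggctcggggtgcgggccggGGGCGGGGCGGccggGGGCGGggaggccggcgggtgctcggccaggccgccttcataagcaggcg
Alpl, downstream start, chr4:137766426-137766725, minus strand: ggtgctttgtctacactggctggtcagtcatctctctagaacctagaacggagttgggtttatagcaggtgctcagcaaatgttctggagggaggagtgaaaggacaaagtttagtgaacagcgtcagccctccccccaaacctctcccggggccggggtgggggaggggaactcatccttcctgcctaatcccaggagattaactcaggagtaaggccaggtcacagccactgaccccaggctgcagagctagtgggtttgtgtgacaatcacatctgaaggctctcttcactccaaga
The Ank window was 78% G or C with 53 CpG pairs, and it matched SP1 at 2 overlapping places and no other motif searched. The Enpp1 window was 61.7% G or C and had 1 match each to RUNX, HIF, C/EBP and SP1. The upstream Alpl window, with 70% G or C, had 3 SP1 matches, and the downstream window, with 54.3%, had none of the motifs. Over 32851 RefSeq windows of the same length, 16.8% held the RUNX motif, 7.81% AP-1, 19.6% HIF, 10.8% C/EBP and 35.7% SP1. A window was found for 6 of the 7 genes, 8 windows in all. Phospho1 held the 1 AP-1 match among them, and the Phex window held none of the motifs. A match says only that these letters occur, and the motifs were chosen with the values known.

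Pyrophosphate is removed by the product of Alpl (ENSMUSG00000028766, chr4:137469044-137523695 in GRCm39, minus strand), the tissue-nonspecific alkaline phosphatase, which a lipid anchor holds on the outer face of osteoblasts and matrix vesicles. Alpl was at 27.80, 25.79 and 28.09 FPKM in conditioned medium, and at 32.21, 28.38 and 31.31 FPKM in control medium. The groups did not overlap, but replicate 2 was the lowest library of each group and the lowest control library lay just above the highest conditioned medium library. The log2 fold change was -0.15 ± 0.052 (edgeR adjusted p = 0.020), with a 95% interval of -0.26 to -0.05, or a change of -16.5% to -3.1%. The call was lost without conditioned medium replicate 2 (-0.12, adjusted p = 0.13) and without control medium replicate 1 (-0.12, adjusted p = 0.083), while over all 15 alternatives the adjusted p ran from 0.0041 to 0.13.

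Set against the genes of pyrophosphate supply, Alpl was higher relative to Ank and lower relative to Enpp1. Per Ank transcript, Alpl stood at 5.16, 4.31 and 5.06 in conditioned medium, and at 2.90, 2.61 and 2.56 in control medium. Per Enpp1 transcript, Alpl stood at 8.01, 7.07 and 7.98 in conditioned medium, and at 10.1, 8.20 and 10.0 in control medium. The groups did not overlap in either ratio, though replicate 2 of control medium came close to conditioned medium in the ratio to Enpp1. For the ratio to Enpp1 this followed from the levels, since Alpl was lower and Enpp1 higher in every conditioned medium library. No count was found for the other alkaline phosphatase genes Alpi, Akp3 and Alppl2 in any library, so all alkaline phosphatase reads counted here were those of Alpl.

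**Figure D2:**
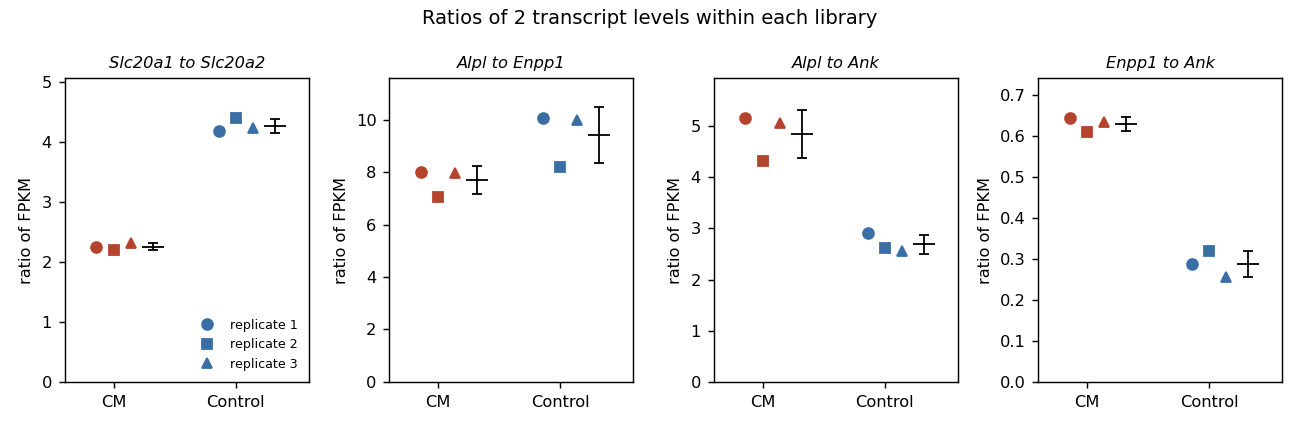
Ratio of 2 FPKM values within each library, conditioned medium (CM) left of control medium in each panel, on axes from 0; symbols mark the replicate and black bars the mean ± SD of 3 samples. The ratio of Slc20a1 to Slc20a2 is 2.19 to 2.31 in conditioned medium and 4.18 to 4.40 in control medium, and the ratios of Alpl and of Enpp1 to Ank are higher in every conditioned medium library.

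Inside matrix vesicles, phosphate is released by the product of Phospho1 (ENSMUSG00000050860, chr11:95715325-95722966 in GRCm39, plus strand), a phosphatase of phosphocholine and phosphoethanolamine. Its counts were 20, 8 and 8 in conditioned medium, and 11, 5 and 17 in control medium, or 0.18 to 0.47 FPKM in conditioned medium and 0.12 to 0.40 FPKM in control medium. The groups overlapped, and the largest value of all was conditioned medium replicate 1. Conditioned medium held 36 counts and control medium 33, a ratio of scaled counts of 1.08 (exact 95% counting interval 0.653 to 1.78), and without the expression filter the edgeR adjusted p was 0.91. Such intervals cover counting error only. These counts could not tell apart the ratios within this interval, and the spread between replicates may hide larger differences. The gene lies within the span of Zfp652 on the same strand, with 3326 counts in conditioned medium and 4204 in control medium. It also overlaps Abi3 on the opposite strand, with 163 counts in conditioned medium and 470 in control medium, so even these few Phospho1 reads are uncertain.

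Phosphate uptake rests on the type III sodium-phosphate cotransporters PiT-1 and PiT-2, encoded by Slc20a1 and Slc20a2. Slc20a2 (ENSMUSG00000037656, chr8:22966804-23059628 in GRCm39, plus strand) was at 9.36, 9.50 and 9.03 FPKM in conditioned medium, and at 5.50, 5.21 and 5.09 FPKM in control medium. All 3 conditioned medium libraries lay above all 3 control libraries, as in 24.7% of all tested genes. The means were 9.30 ± 0.241 FPKM in conditioned medium and 5.27 ± 0.211 FPKM in control medium (SD, n = 3 each), a log2 fold change of 0.84 ± 0.056 (edgeR adjusted p = 7.6e-11). It rested on 3535 counts in conditioned medium and 1956 in control medium. Its adjusted p was below that of Ank, while its change was smaller. On the opposite strand, Smim19 overlaps it at 1 end, with 615 counts in conditioned medium and 716 in control medium, and Gm17491 lies within it on the same strand, with 133 counts in conditioned medium and 116 in control medium. Their part in the Slc20a2 result was not tested.

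Slc20a1 (ENSMUSG00000027397, chr2:129040684-129053536 in GRCm39, plus strand) was at 21.11, 20.83 and 20.87 FPKM in conditioned medium, and at 22.97, 22.93 and 21.53 FPKM in control medium. The groups did not overlap, and control medium replicate 3 lay closest to the conditioned medium libraries. The log2 fold change was -0.09 ± 0.044 (edgeR adjusted p = 0.12), with a 95% interval of -0.18 to 0.01, or a change of -11.6% to 0.409%. Slc20a1 was called lower with upper quartile factors (-0.11, adjusted p = 0.043), with limma on log2(TPM + 1) (-0.14, adjusted p = 0.016) and without control medium replicate 3 (-0.11, adjusted p = 0.018). With the other 12 alternatives it was not called.

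The make-up of the pair differed more than its sum. Slc20a2 contributed 30.7%, 31.3% and 30.2% of the summed FPKM of both transporters in conditioned medium, and 19.3%, 18.5% and 19.1% in control medium. Every conditioned medium library held a larger Slc20a2 share than every control library. This followed from the levels above, since Slc20a2 was higher and Slc20a1 lower in every conditioned medium library. The summed level was 30.2 ± 0.297 FPKM in conditioned medium and 27.7 ± 0.987 FPKM in control medium (SD, n = 3 each). Slc20a1 was the more abundant transcript in all 6 libraries, at 2.25 ± 0.0593 times Slc20a2 in conditioned medium and 4.27 ± 0.117 times in control medium.

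Phex (ENSMUSG00000057457, chrX:155945071-156198308 in GRCm39, minus strand) encodes an endopeptidase of osteoblasts and osteocytes whose loss raises FGF23 and causes phosphate wasting. It had 3, 0 and 6 counts in conditioned medium, and 5, 11 and 8 counts in control medium. The groups overlapped between conditioned medium replicate 3 and control medium replicate 1, and no library reached 0.1 FPKM. Conditioned medium held 9 counts and control medium 24, a ratio of scaled counts of 0.370 (exact 95% counting interval 0.151 to 0.825). Without the expression filter the edgeR adjusted p was 0.19 (log2 fold change -1.40). A count of 0, as in conditioned medium replicate 2, allows up to 3 counts, which was 0.0224 to 0.0256 FPKM over the libraries.

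**Figure D3:**
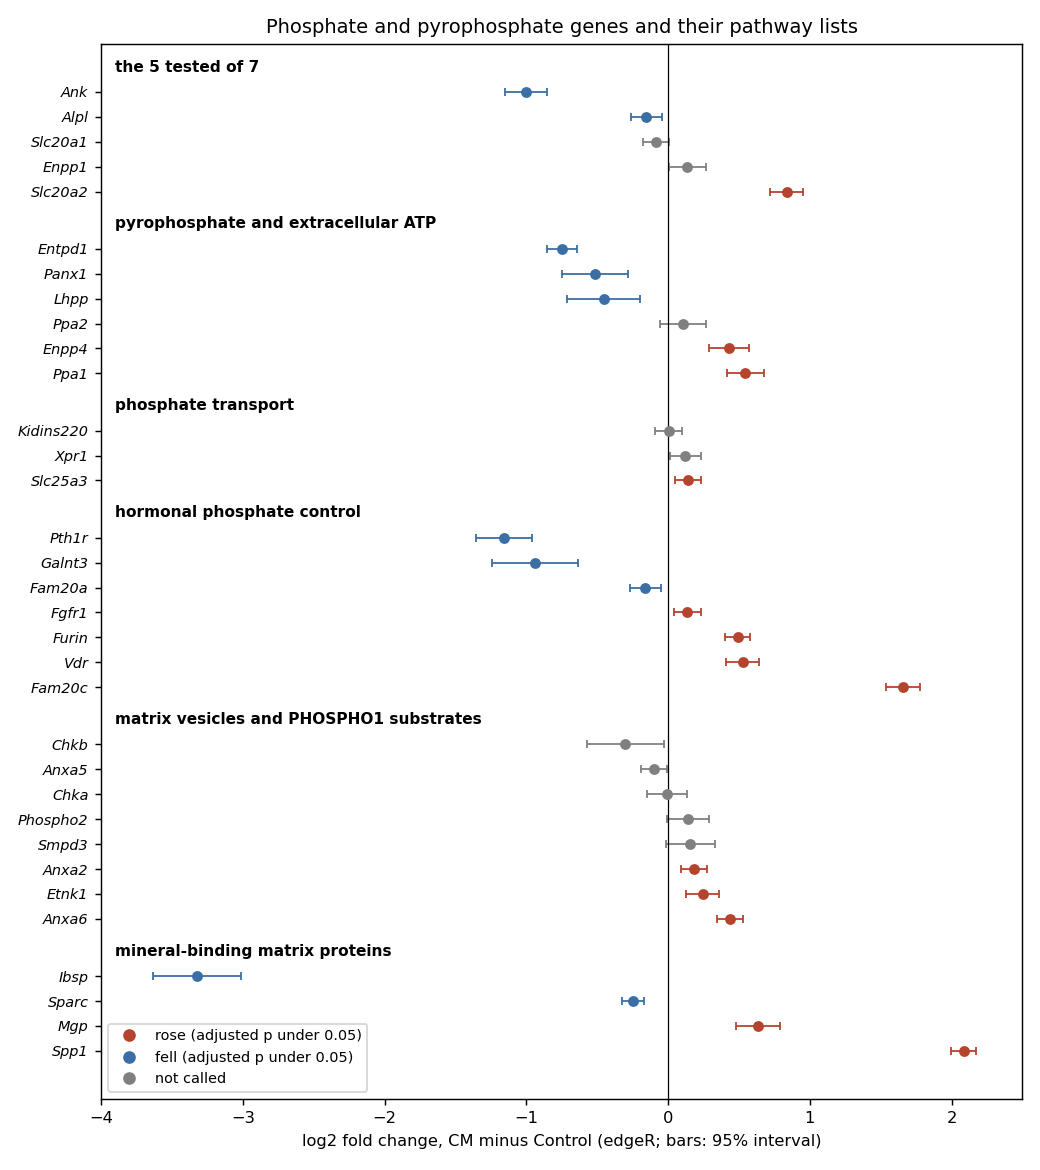
Log2 fold change (conditioned minus control medium, horizontal axis) with its 95% interval from edgeR for the 5 tested members and the 28 tested genes of the pathway lists, grouped by list; red genes rose, blue genes fell and grey genes were not called. Ibsp lies far to the left at -3.33 and Spp1 and Fam20c lie to the right at 2.09 and 1.66, while Slc20a1 and Enpp1 lie near 0.

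The wider pathway was described with 6 lists of 49 genes, of which 28 passed the filter. Of these, 12 rose and 8 fell, with a median log2 fold change of 0.13 against -0.0028 over all tested genes. Calls in either direction were made in 45.9% of all tested genes. Nothing is read from the count of the lists against that share, since the lists were drawn up with results of these data known.

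Among 10 genes of pyrophosphate and extracellular ATP handling, 6 were tested. Of these, 2 rose and 3 fell (median -0.17), against 23.0% and 22.9% of all tested genes. Entpd1, the CD39 ectonucleotidase that strips ATP to AMP without making pyrophosphate, was at 8.92 ± 0.231 FPKM in conditioned medium and 15.1 ± 0.302 FPKM in control medium (-0.75 ± 0.050). Panx1, a channel gene through which ATP leaves cells, was at 1.85 ± 0.171 FPKM in conditioned medium and 2.68 ± 0.404 FPKM in control medium (-0.52 ± 0.11). Ppa1, the cytosolic inorganic pyrophosphatase gene, was at 15.5 ± 0.881 FPKM in conditioned medium and 10.7 ± 0.201 FPKM in control medium (0.55 ± 0.061). Lhpp, which encodes a phosphatase that acts on pyrophosphate and on phosphohistidine, fell by 0.45 on the log2 scale (SE 0.12). Their edgeR adjusted p-values were 6.2e-11 for Entpd1, 6.7e-04 for Panx1, 2.3e-07 for Ppa1 and 0.0048 for Lhpp. The remaining called gene, Enpp4, was at 7.08 ± 0.355 FPKM in conditioned medium and 5.32 ± 0.200 FPKM in control medium (0.43 ± 0.069, edgeR adjusted p = 2.8e-05).

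Below the filter, and named after their values were seen, were 2 more genes of this list. Panx3, a pannexin gene of osteoblasts and cartilage, had 2, 3 and 2 counts in conditioned medium, and 19, 27 and 34 counts in control medium. Its scaled count ratio was 0.0864 (exact 95% counting interval 0.0337 to 0.186), and its adjusted p was 4.3e-10 in the edgeR fit without the filter, in which 21.7% of 29132 genes were called. Enpp3, a relative of Enpp1, had 179 counts in conditioned medium and 91 in control medium, a ratio of 1.94 (counting interval 1.5 to 2.53, edgeR adjusted p = 5.6e-04 in that fit). Both lay under 1 FPKM in every library.

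In the phosphate transport list, 3 of 6 genes were tested and 1 rose, against 23.0% of all tested genes. Slc25a3, the mitochondrial phosphate carrier gene, was at 56.7 ± 1.33 FPKM in conditioned medium and 52.1 ± 2.34 FPKM in control medium (0.14 ± 0.043, edgeR adjusted p = 0.010). The call was lost with limma on log2(TPM + 1) and without conditioned medium replicate 2. The phosphate exporter gene Xpr1 was at 7.97 ± 0.445 FPKM in conditioned medium and 7.41 ± 0.405 FPKM in control medium, and was not called. Of the kidney and gut transporter genes, Slc34a2 and Slc34a3 had no count, and Slc34a1 had 2 counts in conditioned medium and 0 in control medium. Among the Slc20 and Slc34 genes looked up, counts thus came almost entirely from the Slc20 pair. Transporter genes outside this list and the 7 members were not looked up.

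All 7 tested genes of the 10 in the hormonal list were called, against 45.9% of all tested genes. Of them, 4 were up and 3 down (median 0.14), against 23.0% and 22.9% of all tested genes. The rise of Fgfr1, an FGF receptor gene (0.14 ± 0.047, edgeR adjusted p = 0.023), was no longer called with upper quartile factors, with the 3 limma fits and without conditioned medium replicate 2. The fall of Fam20a, a paralogue of Fam20c (-0.16 ± 0.052, edgeR adjusted p = 0.015), was no longer called without conditioned medium replicate 1. Both were named because their calls were lost. Fam20c, the kinase gene of secreted mineral-binding proteins and of FGF23, was at 12.51, 14.09 and 13.37 FPKM in conditioned medium, and at 4.41, 4.19 and 4.21 FPKM in control medium. The groups lay far apart, with a log2 fold change of 1.66 ± 0.058 (edgeR adjusted p = 1.3e-15). Pth1r, the parathyroid hormone receptor gene, was at 3.31 ± 0.339 FPKM in conditioned medium and 7.46 ± 0.329 FPKM in control medium (-1.16 ± 0.093). Galnt3, whose glycosyltransferase protects FGF23 from cleavage, was at 0.900 ± 0.0781 FPKM in conditioned medium and 1.75 ± 0.189 FPKM in control medium (-0.94 ± 0.15). Vdr, the vitamin D receptor gene, rose by 0.53 on the log2 scale (SE 0.055). Furin, the remaining called gene, rose by 0.49 on the log2 scale (SE 0.043, edgeR adjusted p = 5.4e-09).

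Fgf23 itself lay below the filter and is named after its values were seen. It had 26, 19 and 27 counts in conditioned medium, and 2, 2 and 9 counts in control medium, or 0.55 to 0.70 FPKM in conditioned medium and 0.05 to 0.24 FPKM in control medium. The groups did not overlap. The ratio of scaled counts was 5.47 (exact 95% counting interval 3.01 to 10.8), with an edgeR adjusted p of 2.9e-06 in the fit without the filter. The other osteocyte markers were near 0. Dmp1 had 12 counts in conditioned medium and 2 in control medium, Mepe had 2 in conditioned medium and 6 in control medium, and Sost had none.

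In the list of matrix vesicles and PHOSPHO1 substrates, 8 of 10 genes were tested. Of these, 3 rose and none fell, against 23.0% and 22.9% of all tested genes (median 0.15, median of all tested genes -0.0028). Anxa6, an annexin gene of matrix vesicles, was at 174 ± 3.36 FPKM in conditioned medium and 130 ± 7.23 FPKM in control medium (0.43 ± 0.043). Etnk1, the ethanolamine kinase gene, rose by 0.24 ± 0.056 and Anxa2 by 0.18 ± 0.043 on the log2 scale. Etnk1 was not called with limma on log2(TPM + 1). In the edgeR fit 2 genes, Anxa5 and Chkb, were lower at an unadjusted p under 0.05 and missed the adjusted threshold, and DESeq2 also called 0 lower. Both were called lower with upper quartile factors and with limma on log2(TPM + 1), Chkb also without conditioned medium replicate 2 and Anxa5 without control medium replicate 3. The 5 genes that were not called were Anxa5, the choline kinase genes Chka and Chkb, the paralogue Phospho2 and Smpd3, which encodes a sphingomyelinase that bone mineral needs in mice.

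Of the mineral-binding matrix proteins, 4 of 10 were tested, 2 rose and 2 fell, against 23.0% and 22.9% of all tested genes. The bone sialoprotein gene Ibsp, whose product nucleates mineral, was at 2.83, 1.44 and 1.56 FPKM in conditioned medium, and at 21.66, 16.93 and 21.08 FPKM in control medium. The osteopontin gene Spp1, whose phosphorylated product inhibits crystal growth, rose by 2.09 ± 0.042. Mgp, which encodes the mineral inhibitor matrix Gla protein, was at 37.2 ± 0.699 FPKM in conditioned medium and 24.2 ± 3.10 FPKM in control medium (0.63 ± 0.074). Sparc, the osteonectin gene, fell by 0.25 on the log2 scale (SE 0.037). Their edgeR adjusted p-values were 7.9e-14 for Ibsp, 1.2e-19 for Spp1, 4.4e-07 for Mgp and 1.1e-05 for Sparc.

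Beside these genes, transcripts of other cell types were abundant. All 5 osteoblast markers fell, against 22.9% of all tested genes. Their summed level was 1037 to 1115 FPKM in conditioned medium and 1281 to 1398 FPKM in control medium, nearly all from Col1a1 and Col1a2. Log2 fold changes were -0.29 for Col1a1, -0.28 for Col1a2 and -0.28 for Runx2. They were larger for Sp7, at -1.57 ± 0.12, and for Omd, at -1.51 ± 0.090. Of 8 macrophage markers, 6 fell and 2 rose, against 22.9% and 23.0% of all tested genes. Their sum was 5877 to 6566 FPKM in conditioned medium and 8198 to 9520.2 FPKM in control medium. Most of this sum was Lyz2, at 4571 ± 355 FPKM in conditioned medium and 6683 ± 592 FPKM in control medium. Among the macrophage markers that fell, log2 fold changes ran from -1.35 for Csf1r to -0.33 for Cd68, with Lyz2 at -0.53. The macrophage markers that rose were Itgam, at 129 ± 4.57 FPKM in conditioned medium and 37.6 ± 1.17 FPKM in control medium, and Adgre1, at 585 ± 6.25 FPKM in conditioned medium and 457 ± 21.4 FPKM in control medium. In bulk RNA, fewer cells of a type and less RNA per cell cannot be told apart. Osteoclast markers summed to 114 to 117 FPKM in conditioned medium and 57.9 to 63.4 FPKM in control medium. Of the genes behind this sum, Acp5 rose, at 84.5 ± 2.69 FPKM in conditioned medium and 27.3 ± 1.65 FPKM in control medium, and Ctsk was not called, at 30.5 ± 1.07 FPKM in conditioned medium and 33.5 ± 1.84 FPKM in control medium. Adipocyte markers summed to 21.6 to 23.7 FPKM in conditioned medium and 9.2 to 9.88 FPKM in control medium, almost entirely from Fabp4. Neutrophil markers summed to 23.4 to 27.2 FPKM in conditioned medium and 4.57 to 6.93 FPKM in control medium. The rise of this sum was that of S100a8, at 24.5 ± 1.84 FPKM in conditioned medium and 3.71 ± 0.936 FPKM in control medium, while S100a9 fell by 1.13 on the log2 scale (SE 0.41, edgeR adjusted p = 0.027). The defining genes Plin1, Cfd, Ly6g, Mpo, Elane, Ocstamp and Dcstamp of these 3 lists were at or near 0. Mpo had 24 counts in conditioned medium, 19 of them in replicate 2, and 1 in control medium. Adipoq and Calcr also lay below the filter. Adipoq had 8 counts in conditioned medium and 27 in control medium, opposite in direction to Fabp4 (edgeR adjusted p = 0.074 without the filter). Calcr had 19 counts in conditioned medium and 16 in control medium. The lymphocyte sum was 0.640 to 1.06 FPKM in conditioned medium and 2.39 to 2.82 FPKM in control medium, and the osteocyte sum was 0.680 to 0.790 FPKM in conditioned medium and 0.0700 to 0.380 FPKM in control medium. Chondrocyte sums were 23.9 to 25.3 FPKM in conditioned medium and 24.8 to 26.6 FPKM in control medium, and endothelial sums 23.8 to 24.2 FPKM in conditioned medium and 20.9 to 22.0 FPKM in control medium. The endothelial markers went different ways. Emcn rose (0.40 ± 0.058, edgeR adjusted p = 9.1e-06), Kdr fell (-0.45 ± 0.11, edgeR adjusted p = 0.0016), and Pecam1 and Cdh5 were not called. Liver and hepatoma genes summed to 1.35 to 1.53 FPKM in conditioned medium and 1.29 to 1.45 FPKM in control medium, nearly all Afp. No count of Apoa1, Ttr, Cd3e or Sost was found. The part of any of these in the values of Ank, Slc20a2 and Alpl was not tested.

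The genes whose pattern over the 6 libraries was most like that of Ank were Rasgef1b, Nfxl1 and Fgl2. Likeness was the root mean square difference of log2 CPM centred on its mean, and it came to 0.0316, 0.0441 and 0.0455 for these genes. Rasgef1b was at 3.46, 4.04 and 3.67 FPKM in conditioned medium, and at 7.46, 7.21 and 7.80 FPKM in control medium. Nfxl1 was at 5.86, 6.03 and 5.80 FPKM in conditioned medium, and at 12.08, 11.87 and 13.03 FPKM in control medium. Fgl2 was at 6.50, 7.25 and 6.60 FPKM in conditioned medium, and at 13.62, 13.79 and 15.88 FPKM in control medium. No likeness was computed for genes other than Ank, since no other gene of the 7 was called at 2-fold or more.

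In the deposited GO terms, 3 or more of the 7 genes shared 6 terms, of which 3 were broad terms of the membrane. Regulation of bone mineralization was annotated to Phospho1, Enpp1 and Ank. Of its 16 tested genes, Enpp1 and Ank among them, 5 rose and 7 fell (median -0.085), against 23.0% and 22.9% of all tested genes. Inorganic phosphate transmembrane transporter activity was annotated to Ank, Slc20a1 and Slc20a2, and of its 4 tested genes 2 rose and 1 fell. Since 3 of these 4 genes were the members themselves, this count mostly repeats their own calls. These terms were looked up after the values were seen, so nothing is read from their counts.

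**Figure D4:**
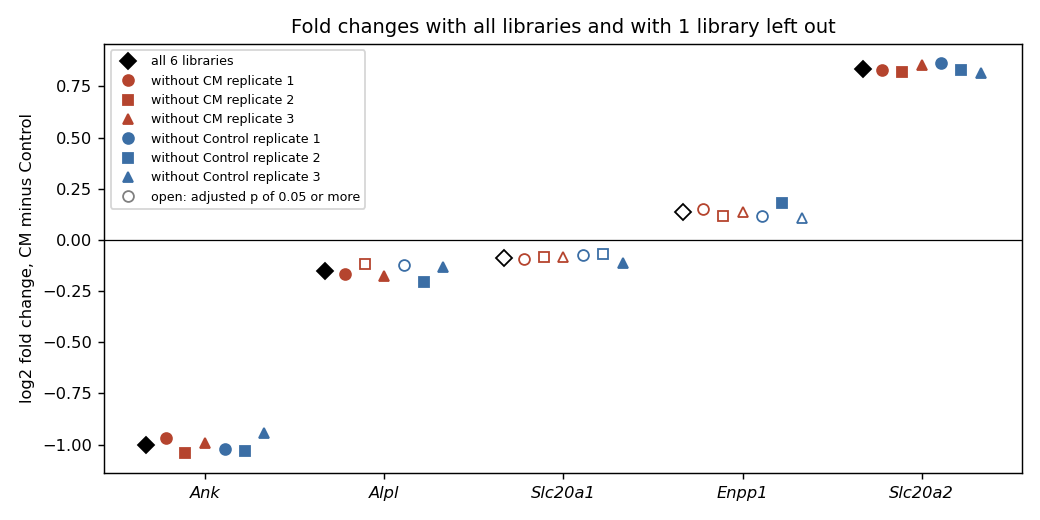
Log2 fold change (conditioned minus control medium, vertical axis) of the 5 tested genes with all 6 libraries (black diamonds) and with 1 library left out (red: a conditioned medium library, blue: a control library); filled symbols have an adjusted p under 0.05. Ank stays between -1.04 and -0.94 and Slc20a2 between 0.81 and 0.86, while Alpl, Slc20a1 and Enpp1 lie near 0 and change between filled and open.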

How the data were processed

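Poly(A) RNA of 6 samples was read from both ends on an Illumina sequencer, per the labels' protocols. Tools listed without role or order in the submitters' processing notes are HISAT2 2.0.1, HTSeq 0.6.1, cutadapt 1.9.1 and DESeq2, and the build is GRCm39. Per the file headers, the deposited table gives raw read counts, the authors' FPKM values and exonic lengths. The deposited FPKM values equalled count over length and total count in 100% of cases (tolerance 0.006 FPKM). Totals were 18661629 to 21329475 counts per library, and 2639 genes had no symbol. Replicates differed by more than counting noise. Chi-square per degree of freedom was 2.45 to 3.08 between conditioned medium libraries and 4.99 to 12.0 between control libraries. This excess does not tell biological from technical spread. Each library was treated as 1 sample.

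Counts were tested with edgeR 4.0.16 in R 4.3.3 (quasi-likelihood, TMM factors, Benjamini-Hochberg adjustment) on 12153 genes with a mean of at least 1 FPKM. Each SE was derived from the fold change and its F statistic. Alternatives used DESeq2 1.42.0, limma 3.58.1, other factors, filters and pseudocounts, a replicate block, and each library left out. The functions were tested on simulated data. Members and lists were chosen with earlier results of these data known. Named are all 7 members, of each list up to 4 called genes with the largest change, and for members called at 2-fold the 3 genes most alike. Some further genes are named beyond this rule, among them Enpp4 and Furin. Scaled count ratios divide by TMM-scaled library sizes.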

Additional observations from a re-analysis of the deposited data

How the results depend on the processing

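Over the 15 alternatives to the edgeR fit, Ank stayed called between -1.04 and -0.90 and Slc20a2 between 0.72 and 0.86. Leaving out a library moved Alpl between -0.20 and -0.12 (called in 4 of 6 such fits), Enpp1 between 0.11 and 0.18 and Slc20a1 between -0.11 and -0.070. It also moved the members called lower between 1 and 3 and those called higher between 1 and 2. Slc20a1 became called with upper quartile factors (-0.11) and with limma on log2(TPM + 1) (-0.14); the cause was not tested, and these scalings moved the median of all tested genes to -0.031 and -0.053. With limma on log2(TPM + 1), 38.6% of all calls were rises, against 50.1% in the edgeR fit. The pathway lists gave 9 to 14 rises and 7 to 10 falls, against 12 and 8. Within them, the matrix vesicle list gave 0 to 2 falls, against 0, and the phosphate transport list 0 to 2 rises, against 1, and the hormonal list 3 to 5 rises and 2 to 3 falls, against 4 and 3. No fold change of the 5 tested members turned its sign, and of the 28 tested list genes the uncalled Chka and Kidins220, both near 0, did so in 2 and 6 alternatives. The deviations of same-numbered libraries had correlations of -0.0031, 0.065 and 0.074, and the other pairings ran from -0.081 to 0.015. Such values cannot tell if same-numbered samples shared an animal or a batch, so pairing was not settled. The replicate block gave 2831 rises and 2831 falls over all genes, against 2793 and 2785. It changed no call among the 5 members (Alpl -0.15, edgeR adjusted p = 0.0076, against 0.020 without it). Among the list genes, Xpr1 became called higher with the block. The log2 count ratio lay between -0.46 and 0.54 for Phospho1 and between -2.40 and -0.89 for Phex, where few counts limit what can be seen.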
